A study of Mus musculus with 2 samples.

Results

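The platelet-derived growth factor (PDGF) genes were followed by cell type in single-cell RNA sequencing (scRNA-Seq) of the mouse temporomandibular joint (TMJ). The 7 genes described are the ligands *Pdgfa*, *Pdgfb*, *Pdgfc* and *Pdgfd*, the receptors *Pdgfra* and *Pdgfrb*, and the receptor-like gene *Pdgfrl*. They were matched by gene symbol among the 32285 genes of both count matrices, and all 7 were present. The libraries came from female C57BL/6 WT mice, labelled 8 to 10 weeks old. According to the methods, joints were injected on both sides with 10 µL of PBS or of complete Freund's adjuvant (CFA, 5 mg/mL) at 8 weeks of age and were collected 3 weeks later. CFA is a suspension of killed mycobacteria in oil that causes a lasting local inflammation. Bone of the condyle and temporal side, the disc, ligament and muscle were taken, and CD45+ immune cells were reduced with magnetic beads after digestion. The methods give 3 animals per group and 1 digestion tube for each group, so the tissue of a group was pooled. There was 1 library per condition. No test between conditions was therefore made, differences have no replicate check, and every interval given here covers counting error only.

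PDGFs are secreted dimers that drive the growth and migration of mesenchymal cells. PDGF-A and PDGF-C act mainly through PDGFRα, PDGF-D mainly through PDGFRβ, and PDGF-B through both. PDGF-B released by endothelium draws pericytes onto growing vessels, and PDGFRα marks fibroblasts and other connective tissue cells. PDGF-C and PDGF-D are secreted in a latent form that proteases must cut. *Pdgfrl* codes for a secreted protein that resembles the ligand-binding part of a PDGF receptor and lacks a kinase. On GRCm38, *Pdgfa* lies on chromosome 5 at 138976014-138997370, *Pdgfb* on chromosome 15 at 79995874-80014977, *Pdgfc* on chromosome 3 at 81036416-81214040 and *Pdgfd* on chromosome 9 at 6168584-6378850. *Pdgfra* lies on chromosome 5 at 75152292-75198215 and *Pdgfrl* on chromosome 8 at 40926212-40990785. UMIs (unique molecular identifiers, which count captured molecules) were given per gene and do not separate isoforms.

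Of 7671 PBS and 5709 CFA barcodes, 2667 and 4014 were kept, with a median of 7022 and 6510 UMIs per cell. The PBS library carried far more hemoglobin RNA: 3178 PBS and 339 CFA barcodes that passed the gene and mitochondrial limits were left out because over 1% of their UMIs were hemoglobin. The libraries shared 10 barcode sequences, 2 of them among kept cells. The cells formed 35 clusters, of which 31 were named under 18 class names from marker genes, and 11 classes had at least 50 cells in both libraries. Names carry the suffix "-like" because they rest on markers. Macrophage-like cells (18 in PBS and 300 in CFA) and osteoclast-like macrophages (1 and 288) were too few in PBS for a comparison. The erythrocyte-like cluster was also led by secretory gland genes such as *Obp1a*, and its values are not described.

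Classes were ranked in a library where they were named and had at least 50 cells there, and most PDGF genes then led in the same class of both libraries. Levels are given in CPM, the UMIs of a gene scaled to the same total of UMIs in every class, and are compared between classes and not between genes. Among these classes, *Pdgfb* and *Pdgfd* were highest in endothelial-like cells, *Pdgfa* and *Pdgfrb* in mural-like cells (the smooth muscle cells and pericytes of vessel walls) and *Pdgfra* in fibroblast-like cells, in PBS and in CFA. *Pdgfrl* was highest in tenocyte-like cells in PBS and in chondrocyte-like cells in CFA. *Pdgfc* was spread over skeletal and connective tissue classes. Among the ranked classes, it was highest in PBS in osteoblast-like (69.8) and chondrocyte-like (55.3) cells, and in CFA in nonmyelinating glia-like (115.7), osteoblast-like (90.9) and fibroblast-like (87.1) cells, and within each library the intervals of the ratios between these neighbours held 1. Several smaller or unnamed groups lay above the leading class. In PBS, 46 nonmyelinating glia-like cells had *Pdgfa* at 230.6 CPM (178 to 294), and the 30 cells of the unnamed cluster 29 had *Pdgfc* at 148 CPM. The unnamed cluster 11, led by endothelial genes at a low UMI count, had *Pdgfd* at 1018 CPM in PBS and 1299 in CFA. Its *Pdgfb* was at 253 in CFA, but at 171 in PBS it lay below the 205 of endothelial-like cells. In CFA, the 6 cells of cluster 29 had *Pdgfc* at 118 CPM, close to the 115.7 (90.7 to 145.4) of nonmyelinating glia-like cells. The heat map of levels shows these patterns for 15 classes.

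**Figure D1:**
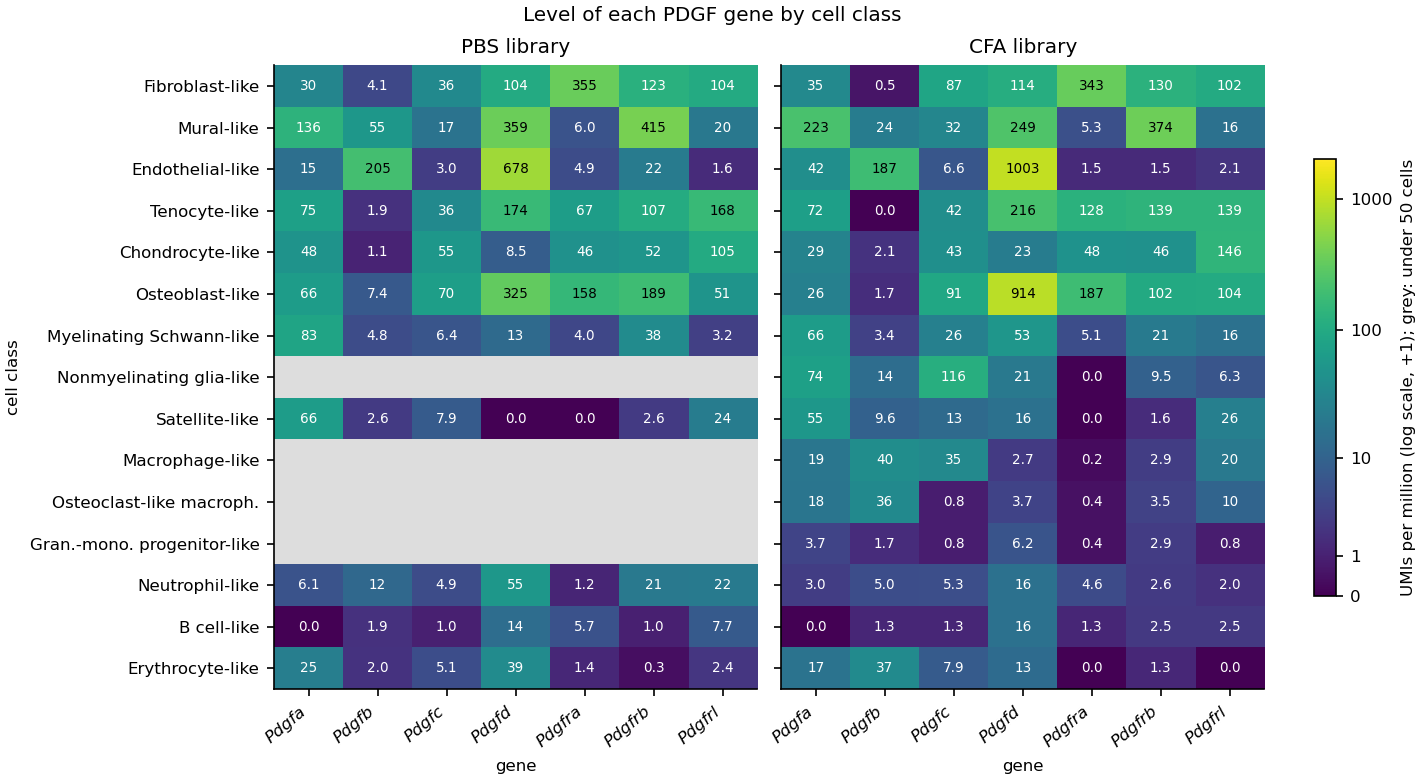
Level of each PDGF gene (columns) in each cell class (rows), in CPM, with the color on a log scale and the value printed in each cell; classes with under 50 cells in a library are grey. Within the *Pdgfd* column, endothelial-like cells held the highest level of the classes drawn, 678 in PBS and 1003 in CFA.

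The share of a gene's molecules that a class contributed depended on its level and on how many of its cells were recovered. Endothelial-like cells (26.0% of cells in PBS, 23.6% in CFA) held 82.6% of the *Pdgfb* UMIs in PBS (95% exact binomial interval, 80.6% to 84.6%) and 62.0% in CFA (59.8% to 64.1%). In CFA, osteoclast-like macrophages held another 17.1% and macrophage-like cells 8.27%. Fibroblast-like cells held 77.7% and 74.2% of the *Pdgfra* UMIs, although they were 17.6% of PBS cells and 9.19% of CFA cells. Mural-like cells held 37.0% and 39.5% of the *Pdgfrb* UMIs and fibroblast-like cells 29.1% and 34.0%. Over all kept cells, *Pdgfra* was at 89.0 CPM in PBS and 58.2 in CFA, and *Pdgfrb* at 82.5 and 48.1. In such whole-library sums, fewer cells of a type and less RNA per cell cannot be told apart.

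**Figure D2:**
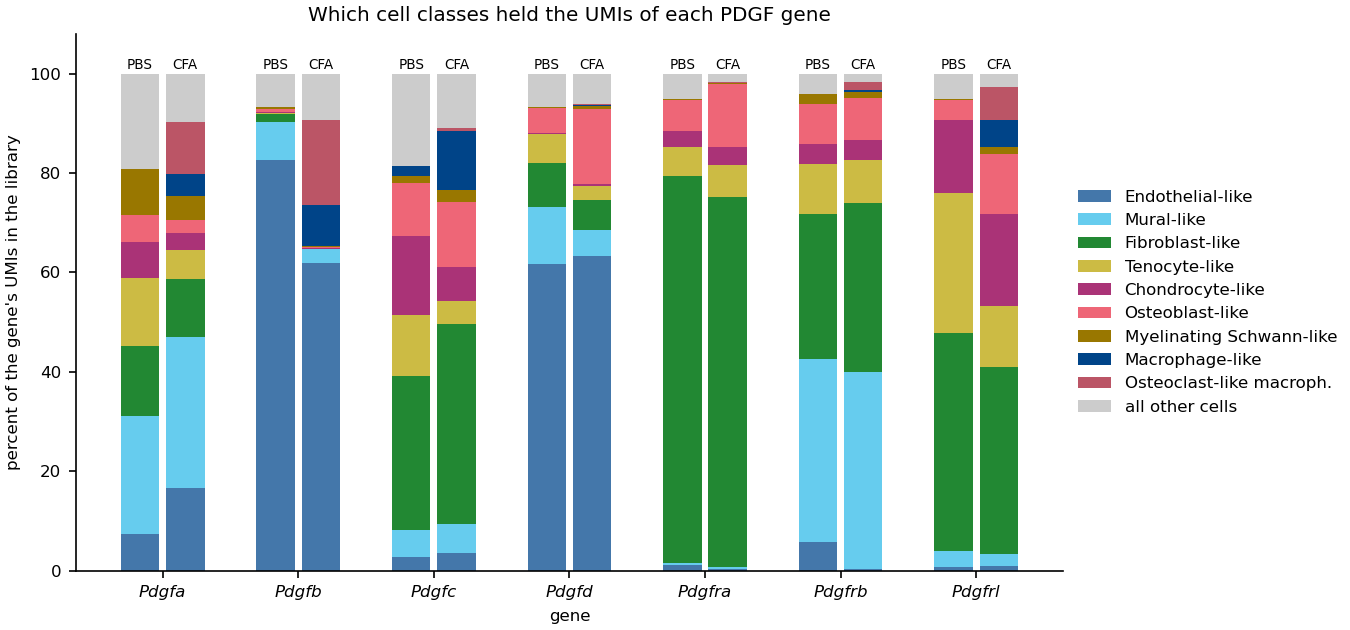
Percent of each gene's UMIs held by each class in the PBS (left bar) and CFA (right bar) library; every bar adds up to the whole of the gene's UMIs in that library. The endothelial-like part of *Pdgfb* was 82.6% in PBS and 62.0% in CFA, where macrophage classes made up much of the rest. The unnamed clusters 11 and 21, which held endothelial markers, are drawn among all other cells.

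Comparisons of CFA with PBS within a class asked whether a gene's level differed beyond counting error. A ratio of at least 1.5, or of at most 1/1.5, was counted as past the fold, for genes with at least 50 UMIs over both libraries. Of 10806 genes in endothelial-like cells, 9.85% were higher and 11.4% lower in CFA past the fold. Of 5 PDGF genes with enough UMIs there, *Pdgfa* and *Pdgfc* were higher and *Pdgfrb* lower. In fibroblast-like cells, 12.5% of 11228 genes were higher and 9.69% lower, and of 6 PDGF genes only *Pdgfc* was past the fold, being higher. In mural-like cells, 7.8% of 8591 genes were higher and 9.61% lower, and of 6 PDGF genes *Pdgfa* and *Pdgfc* were higher and *Pdgfb* lower. In tenocyte-like cells, 9.73% of 7874 genes were past the fold in each direction, and of 6 PDGF genes only *Pdgfra* was, being higher. In osteoblast-like cells, 17.7% of 7592 genes were higher and 10.7% lower, and of 6 PDGF genes *Pdgfd* and *Pdgfrl* were higher and *Pdgfa* and *Pdgfrb* lower. The median ratio of all such genes was 1.01 in endothelial-like, 1.004 in fibroblast-like, 0.997 in mural-like, 1.01 in tenocyte-like and 1.08 in osteoblast-like cells. The median over the PDGF genes measured was 1.48, 1.07, 0.849, 1.20 and 1.24 in the same classes.

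**Figure D3:**
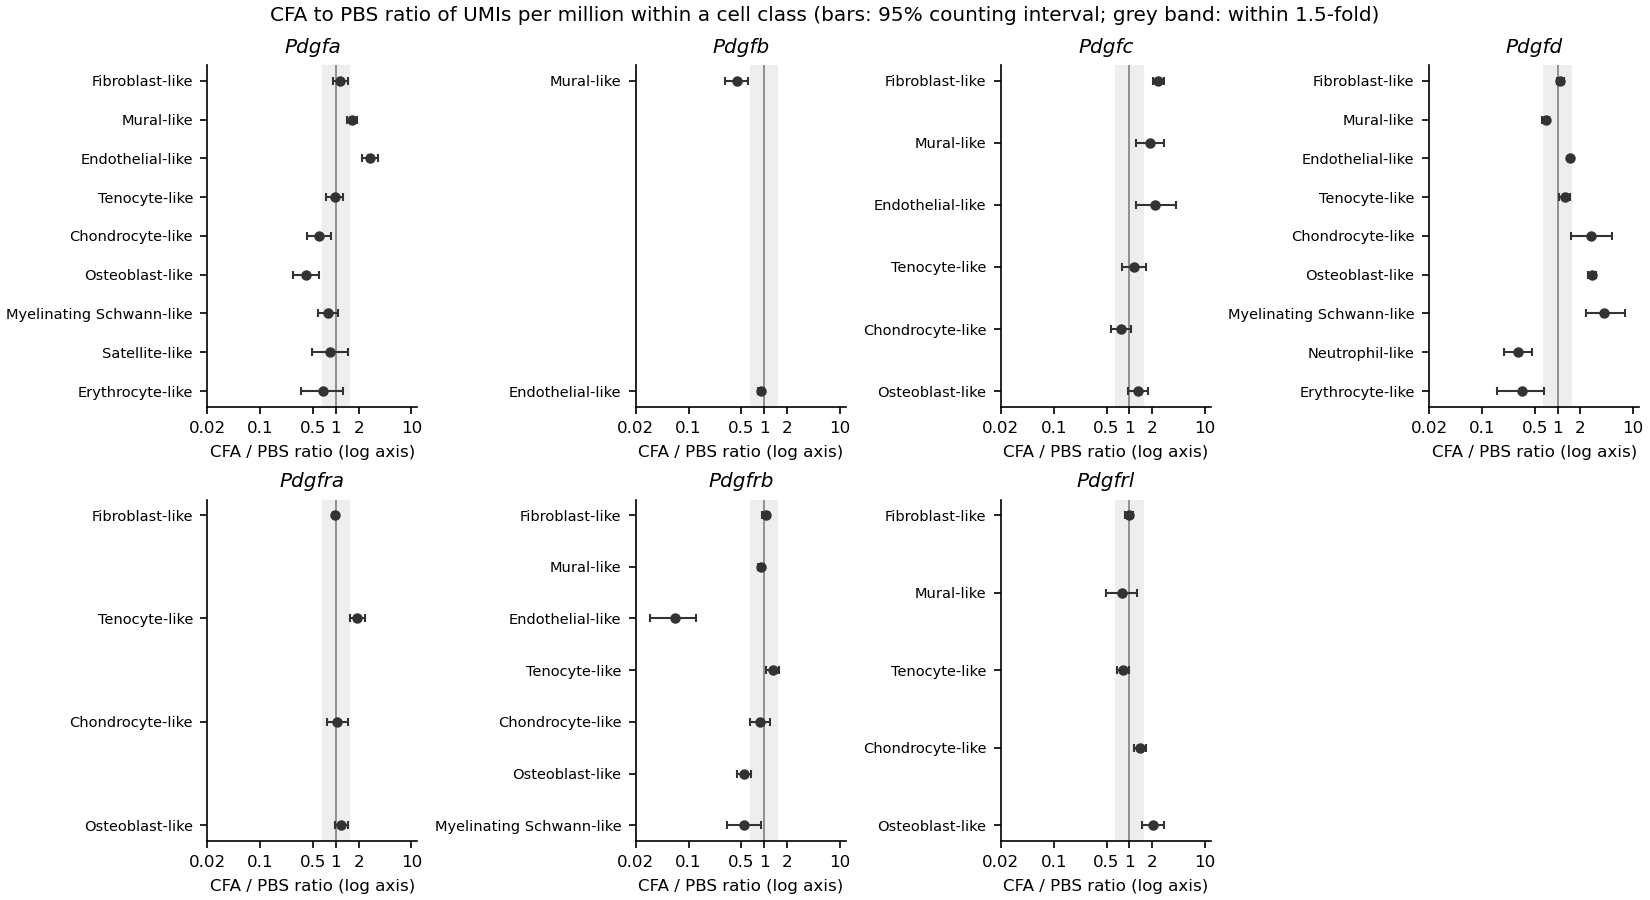
Ratio of the CFA to the PBS level (log axis) for each PDGF gene in each class with at least 50 UMIs of the gene; bars are 95% exact counting intervals and the grey band marks ratios within 1.5-fold. *Pdgfc* in fibroblast-like cells stood at 2.43 and *Pdgfra* there at 0.968.

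*Pdgfb*, the endothelial ligand for pericytes, was at 205 CPM in PBS and 187 in CFA endothelial-like cells, a ratio of 0.910 (0.839 to 0.986). The interval lay just below 1 and the difference was far from the 1.5-fold limit. Among endothelial subsets, named from capillary, arterial and venular markers, the level was highest in arterial-like (260) and capillary-like (234) cells in PBS, and lowest in venular-like cells (153). Arterial-like cells had 202 in CFA, a ratio of 0.776 (0.649 to 0.928). The intervals of the capillary-like (1.05) and venular-like (0.979) ratios held 1. After each cell was thinned to 1000 UMIs, a *Pdgfb* UMI was seen in 18.4% of endothelial-like cells in PBS and 17.8% in CFA. By subset, the share was 26.4% and 18.6% in arterial-like and 21.15% and 11.8% in venular-like cells. In capillary-like cells it was 16.8% and 21.45%, and in the unnamed endothelial-like cluster 1 it was 13.5% and 16.2%. None of 200 thinned PBS B cell-like cells had a *Pdgfb* UMI (exact upper bound 1.83%), and 1.47% of PBS and 0.597% of CFA neutrophil-like cells did.

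Mural-like cells had *Pdgfb* at 54.6 CPM in PBS and 23.5 in CFA, a ratio of 0.431 (0.304 to 0.604). In PBS, 81 of the 109 *Pdgfb* UMIs lay in mural-like cells that also held at least 3 endothelial markers. The 8 endothelial markers, all present in both libraries, summed to 1660 CPM in PBS and 737 in CFA mural-like cells. Their part in the difference was not tested. The ratio was 0.592 among cells whose own markers gave the mural class (an alternative that was added once the data had been seen). In CFA, the macrophage-like and osteoclast-like macrophage classes had *Pdgfb* at 40.5 (34.6 to 47.1) and 35.9 CPM (32.2 to 39.9), so their intervals overlapped.

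*Pdgfd*, a ligand of PDGFRβ, was at 678 CPM in PBS and 1003 in CFA endothelial-like cells, a ratio of 1.48 (1.42 to 1.54), within the 1.5-fold limit. The median share of mitochondrial UMIs in these cells was 1.59% in PBS and 0.522% in CFA. Over 13 alternatives the ratio ranged from 1.43 to 1.51. They included a stricter limit on mitochondrial UMIs and a total without mitochondrial, ribosomal protein and hemoglobin UMIs. The part of the mitochondrial share by itself was not tested. Arterial-like cells had the highest PBS level, 1299, and 1487 in CFA, a ratio of 1.15 (1.07 to 1.23). Capillary-like cells had 480 in PBS and 945 in CFA, a ratio of 1.97 (1.82 to 2.13). Venular-like cells had 409 and 733, a ratio of 1.79 (1.63 to 1.97), and the unnamed endothelial-like cluster 1 had 815 and 1297, a ratio of 1.59 (1.46 to 1.73). Arterial-like cells had the highest level of the 4 subsets in both libraries and venular-like cells the lowest. The venular-like cluster was led by *Selp* and also by the interferon response genes *Ubd*, *Cxcl10* and *Cxcl9*. With thinned cells, a *Pdgfd* UMI was seen in 37.6% of endothelial-like cells in PBS and 52.3% in CFA. In neutrophil-like cells, which should lack the gene, the share was 2.94% and 0.597%, and in B cell-like cells it was 2 of 200 cells in PBS and 0 of 146 in CFA. Median depths were 5653 and 4726 UMIs in endothelial-like, 7971 and 4492 in neutrophil-like and 3734 and 4013 in B cell-like cells.

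**Figure D4:**
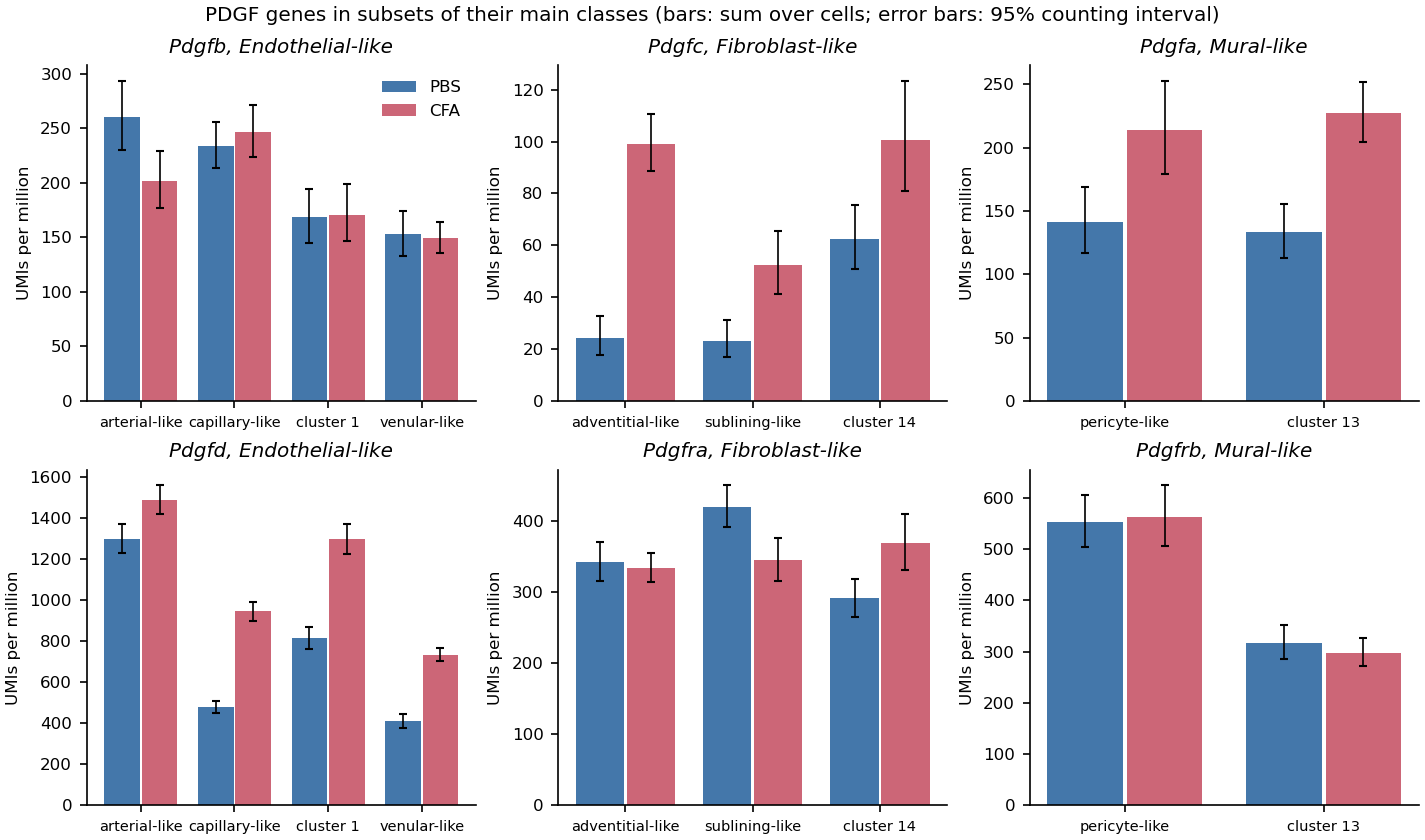
CPM of 6 PDGF genes in subsets of the class that led in their UMIs, PBS in blue and CFA in red, with bars for the sum over cells and error bars for 95% exact Poisson intervals. *Pdgfd* was highest in arterial-like cells of both libraries (1299 and 1487), and *Pdgfc* was higher in CFA in each of the 3 fibroblast subsets.

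*Pdgfd* was also high in osteoblast-like cells, with 325 CPM in PBS and 914 in CFA, a ratio of 2.81 (2.49 to 3.19). This class joined clusters 25 and 27, and their cell numbers differed between libraries. Cluster 25, led by *Dok6*, *Gpc5* and *Plppr1* with *Runx2*, *Sp7* and *Alpl* detected, had 37 PBS and 85 CFA cells and 263 and 1104 CPM. Cluster 27, led by the osteocalcin genes *Bglap* and *Bglap2*, had 35 and 28 cells and 374 and 503 CPM, a ratio of 1.34 (1.11 to 1.62). The ratio in cluster 25 was 4.197 (3.46 to 5.14). Both clusters are under 50 cells in a library, so these values are descriptions. Mural-like cells had *Pdgfd* at 359 CPM in PBS and 249 in CFA, a ratio of 0.694 (0.621 to 0.776), within the fold. Of the 716 PBS and 561 CFA UMIs there, 461 and 248 lay in cells with at least 3 endothelial markers, which were 40 of 182 PBS and 29 of 222 CFA cells. The summed endothelial markers given for *Pdgfb* moved with it, and their part in the ratio was not tested. Among cells whose own markers gave the mural class the ratio was 0.798. The unnamed mural cluster 13 had 395 and 205, a ratio of 0.519, and pericyte-like cells had 308 and 359, a ratio of 1.17 (0.971 to 1.40).

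*Pdgfa*, a ligand of PDGFRα, was at 136 CPM in PBS and 223 in CFA mural-like cells, a ratio of 1.64 (1.41 to 1.91). The 2 mural subsets had similar levels. Pericyte-like cells had 141 and 214, and cluster 13, led by *Pln* and *Sorbs2* and holding the smooth muscle marker *Myh11*, had 133 and 227. The pericyte-like cluster held *Kcnj8* and *Abcc9* but was also led within the class by the fibroblast genes *Mfap5* and *Col3a1*. Thinned mural-like cells had a *Pdgfa* UMI in 10.4% of cells in PBS and 16.9% in CFA. In cells whose own markers gave the mural class, the ratio was 1.39, below the fold. Myelinating Schwann-like cells had 83.4 CPM in PBS and 65.8 in CFA, and the interval of their ratio (0.581 to 1.07) held 1. Nonmyelinating glia-like cells had 230.6 CPM in PBS, in 46 cells, and 74.5 in CFA, in 54 cells, and no ratio was taken because of the cell number. This class joined cluster 26, with 43 PBS and 38 CFA cells, and cluster 33, led by *Fabp7*, with 3 and 16. Their median UMIs per cell were 0.683 and 2.34 times the library's. The levels of this class, also that of *Pdgfc* in CFA, therefore mix the clusters in different parts. The effect of this was not tested. Tenocyte-like cells had 74.7 and 71.6. Endothelial-like cells had 14.9 and 41.8, a ratio of 2.80 (2.19 to 3.61). Of the 278 CFA UMIs, 209 were in venular-like cells, and the ratio was 1.96 as a mean over cells. Osteoblast-like cells had 65.6 and 26.3, a ratio of 0.401 (0.268 to 0.596), which was 0.718 and within the fold as a mean over cells. Within that class cluster 25 had 30.8 and 3.34, on 13 and 4 UMIs, and cluster 27 had 93.6 and 75.9, a ratio of 0.811 (0.524 to 1.25) whose interval held 1. Cluster 25 made up 37 of 72 PBS and 85 of 113 CFA osteoblast-like cells, and the part of this in the ratio was not tested. Chondrocyte-like cells had 48.4 and 29.1, a ratio of 0.601 (0.421 to 0.852).

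*Pdgfc*, another ligand of PDGFRα, was at 35.8 CPM in PBS and 87.1 in CFA fibroblast-like cells, a ratio of 2.43 (2.05 to 2.89). The 3 fibroblast subsets each had a higher level in CFA. Adventitial-like cells, the *Pi16* and *Dpp4* positive cells of the tissue around vessels, had 24.4 and 99.2, a ratio of 4.06 (2.95 to 5.72). Sublining-like cells had 23.2 and 52.5, a ratio of 2.26 (1.54 to 3.35). The unnamed cluster 14 had 62.4 and 100.5, a ratio of 1.61 (1.20 to 2.16). It was led within fibroblasts by *Comp* and *Fmod*, and also by *Scx* and *Thbs4*, all of them tenocyte markers. The 8 tenocyte markers summed to 2640 CPM in PBS and 4178 in CFA there, and to 5776 and 5195 in tenocyte-like cells. Once thinned, 6.35% of PBS and 5.17% of CFA cluster 14 cells had a *Pdgfc* UMI. Fibroblast-like UMIs of *Pdgfc* were spread over 74 PBS and 130 CFA cells, and the 5 cells with the most *Pdgfc* held 35.8% and 21.8% of them. With thinned cells, 2.79% of PBS and 5.82% of CFA fibroblast-like cells had a UMI. Of the 9 macrophage markers, 6 had a UMI in PBS and 8 in CFA fibroblast-like cells, and they summed to 6.60 and 51.2 CPM. Their part in the difference was not tested, and macrophage-like cells of the CFA library had *Pdgfc* at 34.6 CPM. The unnamed cluster 29, with 30 PBS and 6 CFA cells and led by the synovial lining genes *Prg4* and *Hbegf*, had *Pdgfc* at 148 CPM in PBS and held 12.8% of the PBS library's *Pdgfc* UMIs. Mural-like cells had 17.0 and 31.5, a ratio of 1.85 (1.21 to 2.87), but their subsets differed in direction. Cluster 13 had 16.3 and 42.3, a ratio of 2.60 (1.54 to 4.57), and pericyte-like cells had 18.1 and 4.64, a ratio of 0.257 (0.0477 to 0.909) on 15 and 3 UMIs. The mural-like ratio was 1.42, within the fold, as a mean over cells and 6.47 with at most 5% mitochondrial UMIs. In endothelial-like cells the ratio of 2.21 rested on 17 PBS and 44 CFA UMIs, 40 of the latter in 5 cells, and it was 0.612 as a mean over cells.

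*Pdgfra*, the receptor of fibroblasts, was at 355 CPM in PBS and 343 in CFA fibroblast-like cells, a ratio of 0.968 (0.908 to 1.03). Its interval held 1 and lay within the 1.5-fold limits. Sublining-like cells had 420 and 346, a ratio of 0.822 (0.734 to 0.920), and cluster 14 had 291 and 369, a ratio of 1.27 (1.10 to 1.46). Osteoblast-like cells ranked next in both libraries, with 158 and 187 CPM. Tenocyte-like cells (tendon and ligament cells) had 67.0 and 128, a ratio of 1.91 (1.52 to 2.41). All 140 PBS and 170 CFA UMIs there lay in cells that also held at least 3 fibroblast markers, as did 152 of the 153 PBS and all 109 CFA tenocyte-like cells. By their own markers, 104 and 92 of these cells took another class than their cluster. The 10 fibroblast markers summed to 37390 CPM in PBS and 29220 in CFA tenocyte-like cells. Their part in the ratio was not tested.

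*Pdgfrb*, the receptor of pericytes and smooth muscle, was at 415 CPM in PBS and 374 in CFA mural-like cells, a ratio of 0.901 (0.818 to 0.993). Pericyte-like cells had 553 and 564, and cluster 13 had 317 and 298. The intervals of both subset ratios held 1. Fibroblast-like cells had 123 and 130, a ratio of 1.06 (0.949 to 1.18), close to the 107 and 139 of tenocyte-like cells. Osteoblast-like cells had 189 and 102, a ratio of 0.537 (0.434 to 0.665), and both of their clusters were lower in CFA, with ratios of 0.603 and 0.607, but the class ratio was 1.16 with no limit on hemoglobin UMIs. In endothelial-like cells *Pdgfrb* was at 22.5 CPM in PBS and 1.502 in CFA, a ratio of 0.0668 (0.0313 to 0.127). In PBS, 119 of the 128 UMIs lay in 15 cells that held at least 3 mural markers, and 63 UMIs lay in 5 cells. The 11 mural markers summed to 453 CPM in PBS and 191 in CFA endothelial-like cells, and 43 of 693 PBS against 16 of 946 CFA cells held at least 3 of them. Among cells whose own markers gave the endothelial class the ratio was 0.117.

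*Pdgfrl* was at 104 CPM in PBS and 102 in CFA fibroblast-like cells, a ratio of 0.980 (0.870 to 1.10). Tenocyte-like cells had 168 and 139, a ratio of 0.828 (0.689 to 0.992), and chondrocyte-like cells had 105 and 146, a ratio of 1.39 (1.15 to 1.68). Their order was therefore different in the libraries, and in CFA the ratio of these neighbours held 1 in its interval. Osteoblast-like cells had 50.8 and 104, a ratio of 2.05 (1.48 to 2.88). This ratio was 1.30 in cluster 25 and 3.78 (2.199 to 6.87) in cluster 27, which had 17 PBS UMIs. With each cell classed on its own markers, the class ratio was 0.978.

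Mural-like cells held *Pdgfrb* with little *Pdgfra*, and the connective tissue and skeletal classes held both receptors. In mural-like cells as counted, 85.2% held *Pdgfrb* alone in PBS and 86.5% in CFA, and both receptors were seen in 3.30% and 0.901%. In fibroblast-like cells as counted, both were found in 59.8% and 62.9%, *Pdgfra* alone in 28.1% and 23.8%, and *Pdgfrb* alone in 4.04% and 5.15%. Both were also seen, as counted, in 48.6% and 44.2% of osteoblast-like, 24.2% and 33.0% of tenocyte-like and 19.3% and 25.6% of chondrocyte-like cells. These shares depend on depth. With each cell thinned to 1000 UMIs, 26.4% of fibroblast-like cells held *Pdgfra* alone in PBS and 25.5% in CFA, *Pdgfrb* alone in 9.66% and 7.76% and both in 3.65% and 4.43%. The share with both was near that of independent detection, 4.00% and 3.65%. In thinned mural-like cells, 31.9% and 31.1% had *Pdgfrb* alone and none had both. Of thinned B cell-like cells, 0.5% in PBS and none in CFA had *Pdgfra*, and none had *Pdgfrb*. Of thinned PBS neutrophil-like cells, 1.47% had *Pdgfrb*.

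**Figure D5:**
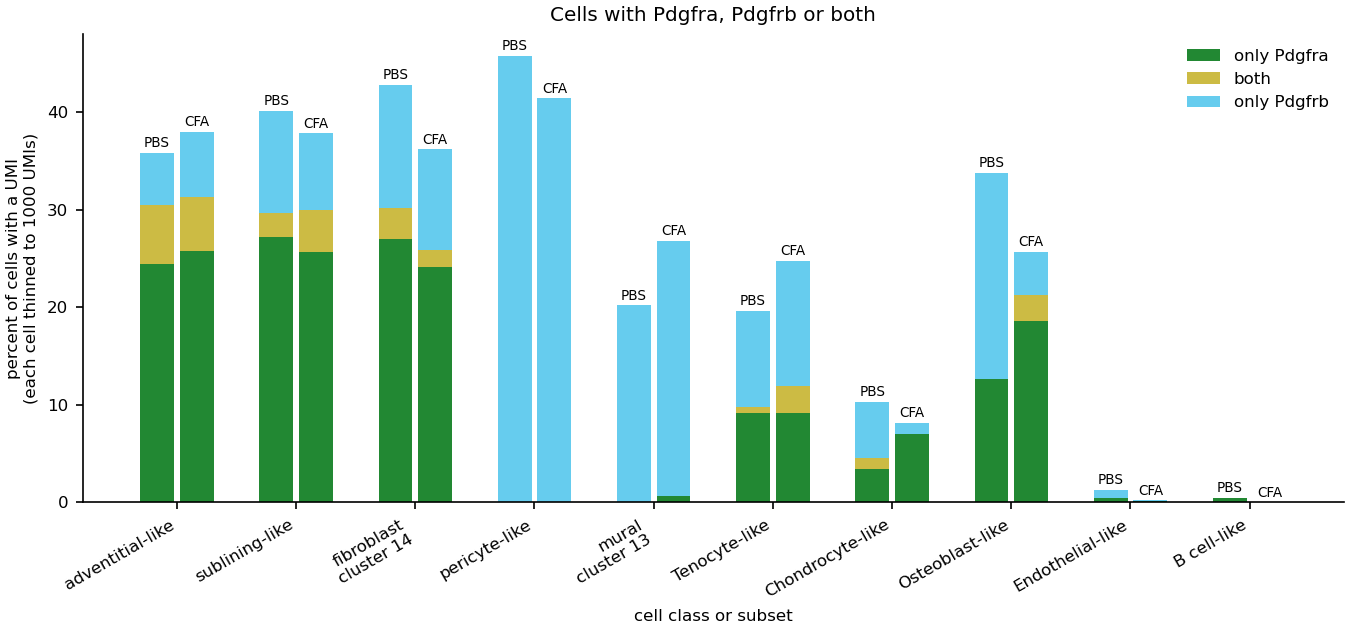
Percent of cells with a UMI of *Pdgfra* alone, *Pdgfrb* alone or both, after each cell was thinned to 1000 UMIs, in PBS and CFA. At this depth most cells had neither receptor. Among cells with a receptor UMI, *Pdgfra* alone was the largest part in each fibroblast subset and *Pdgfrb* alone in each mural subset, and few B cell-like cells had either.

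Other genes of the PDGF pathway were read from a list of 51 genes in 5 roles. Of those with enough UMIs, 5 of 46 were higher and 10 lower past the fold in endothelial-like cells, 5 of 50 higher and 6 lower in fibroblast-like cells, and 1 of 48 higher and 8 lower in mural-like cells, beside the backgrounds given above. The median ratio of the list was 0.982, 1.05 and 1.03. The adaptors and enzymes at the receptor, such as *Grb2*, *Plcg1* and *Pik3r1*, were within the fold in all 17 and 18 genes measured in endothelial-like and fibroblast-like cells. In mural-like cells 1 of 18 was past it, *Pik3cb* at 0.624, with an interval that held 1.

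Of the enzymes that process ligands, *Pcsk5*, a proprotein convertase, was at 200 CPM in PBS and 755 in CFA fibroblast-like cells, a ratio of 3.78 (3.53 to 4.05), and at 22.6 and 46.0 in endothelial-like cells, a ratio of 2.03. *Plat*, the plasminogen activator that can cut PDGF-C, had a ratio of 1.55 (1.30 to 1.84) in endothelial-like cells, and *Plau* a ratio of 1.51 in fibroblast-like cells. Of the binding proteins, *Sparc*, a matrix protein that binds PDGF-B, was lower in CFA in all 3 classes, with ratios of 0.385 in endothelial-like, 0.643 in fibroblast-like and 0.612 in mural-like cells. *Hspg2* (perlecan) was lower too, at 0.637, 0.590 and 0.615. *A2m*, which codes for α2-macroglobulin, was at 0.325 in fibroblast-like cells, while in mural-like cells it had 0 UMIs in PBS and 33 in CFA, too few in all for the fold. *Thbs1* (thrombospondin 1) was at 16.2 and 101.5 CPM in endothelial-like cells, a ratio of 6.29 (5.05 to 7.90).

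Among the brakes on receptor signalling, *Cblb*, a ubiquitin ligase, was higher in CFA in fibroblast-like (2.23) and mural-like (1.51) cells. The phosphatase genes *Ptpn1* and *Ptpn2* had ratios of 1.55 and 1.59 in fibroblast-like cells, and *Ptprj*, whose product removes phosphate from PDGFRβ, one of 3.78 in endothelial-like cells. Past the fold, 1 of 11 brakes was higher and 2 lower in endothelial-like cells. The counts were 3 and 2 in fibroblast-like and 1 and 2 in mural-like cells. Of all genes, 9.85% were higher and 11.4% lower in endothelial-like, 12.5% and 9.69% in fibroblast-like and 7.8% and 9.61% in mural-like cells. Of 9 values for the Sprouty genes over the 3 classes, 5 were lower past the fold. The other 4 were within it, between 1.11 and 1.25. The lower values were *Spry1* at 0.340 and *Spry4* at 0.485 in fibroblast-like cells, *Spry4* at 0.495 and *Spry2* at 0.649 in endothelial-like cells and *Spry1* at 0.516 in mural-like cells, where *Dusp6*, a phosphatase of ERK, was at 0.466. Of the genes that respond to growth factors, 6 of 9 were lower in endothelial-like cells, beside 11.4% of all genes there. Among them were *Sgk1* (0.523), *Junb* (0.559) and *Egr1* (0.598), and *Myc* was higher (2.2). Whether PDGF or the handling of the tissue had a part in these values was not tested. In mural-like cells *Has2*, a hyaluronan synthase, was at 24.0 and 3.55 CPM, a ratio of 0.148 (0.0603 to 0.315), and *Ccnd1* and *Sgk1* were at 0.617 and 0.650. In fibroblast-like cells *Junb* alone was past the fold, at 0.663.

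The genes whose levels over the 22 pairs of class and library were most like each PDGF gene were found by Pearson's r of log2(CPM + 10), among 5582 genes that reached at least 100 CPM in 1 or more pairs and had at least 50 UMIs. For *Pdgfb* they were *Dipk2b* (r = 0.9504), *Shank3* (0.948) and *Gata2* (0.943), and for *Pdgfd* they were *Tspan9* (0.957), *Sh3bp4* (0.879) and *Dock4* (0.871). For *Pdgfra* they were *Sulf2* (0.945), *Dclk1* (0.938) and *Smoc2* (0.938), and for *Pdgfrb* they were *Fam110b* (0.938), *Cacna1c* (0.928) and *Slit3* (0.922). For *Pdgfrl* they were *Mmp2* (0.962), *Ptgis* (0.936) and *Islr* (0.936). *Pdgfa* was most like *Ift43* (0.904), *Wtip* (0.891) and *Itgb1* (0.887), and *Pdgfc* like *Efemp2* (0.910), *Sh3pxd2b* (0.908) and *Gli3* (0.898). The pairs share 2 libraries and 11 classes, so these values are descriptions.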

How the data were processed

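The authors made the deposited UMI counts with Cell Ranger 7.0.1 on mm10 (GRCm38), filtered to barcodes and otherwise raw. The PDGF genes and all lists were chosen with earlier results of these data known. Cells with at least 500 genes, at most 10% mitochondrial and at most 1% hemoglobin UMIs were kept. Seurat 5.3.0 (R 4.3.3, sctransform 0.4.2) integrated both libraries with SCTransform on 3000 genes and clustered them on 200 principal components at a resolution of 1.5, without the 7 PDGF genes. Clusters were named where at least 3 markers were found in at least 25% of cells and at 2-fold the level of other cells of the library (10 CPM added). A cluster stayed unnamed where its 10 leading genes held more markers of another class. The same held where its median UMIs were under 0.333 of the library's and none of its markers was a leading gene. This left out clusters 11 and 21 in spite of their endothelial markers. Python 3.11.15 with scipy 1.17.1 summed UMIs per class, and scanpy 1.11.5 scored doublets. Intervals are exact Poisson, Clopper-Pearson or conditional binomial at 95%. A count of 0 was given a limit of 3 counts. With 1 library per condition no test was possible. Doublets were not removed in the main analysis. The Scrublet threshold marked only 21 PBS and 2 CFA cells, so an alternative left out the 5% of cells with the highest scores. The ratio and naming steps were run on simulated data. In mural-like cells, 200 of 200 genes changed 3-fold among 8591, drawn with counting error only, were past the fold. Cells redrawn from 10 named clusters were given the same names again in 10 of 10. Those names came from the same cells and markers, so this run cannot check whether the cell identities are right. Genes named are the PDGF genes, list genes past the fold (up to 3 per role and direction) and the 3 genes most like each PDGF gene. The labels and the methods differ on enzymes and kit chemistry, and the CFA library holds fewer barcodes than the study's cell number.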

Additional observations from a re-analysis of the deposited data

Results flagged for a closer look

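For 2 genes, 1 class was higher and another lower in CFA past the 1.5-fold limit, each with an interval that left out 1, and the difference between the classes was not tested. The highest and the lowest such class are given. *Pdgfa* had a ratio of 2.80 in endothelial-like cells and of 0.401 in osteoblast-like cells. The endothelial-like ratio was 1.96 as a mean over cells, and 1.16% of PBS and 1.38% of CFA cells had a UMI once thinned. As a mean over cells the osteoblast-like ratio was 0.718, within the fold. In the osteoblast-like cluster 27 it was 0.811, with an interval that held 1. *Pdgfd* had a ratio of 4.14 in myelinating Schwann-like cells, on 16 PBS and 63 CFA UMIs, 58 of the latter in 5 cells. In neutrophil-like cells, which should lack *Pdgfd*, the ratio was 0.296, with 54.6 CPM in PBS and 16.2 in CFA. Of the 45 PBS UMIs there, 38 lay in the 26 of 72 cells whose own markers gave another class, and 37 in cells with at least 3 endothelial markers. In PBS and CFA neutrophil-like cells the fibroblast markers summed to 2634 and 499 CPM, the mural markers to 1486 and 206 and the endothelial markers to 391 and 84.6. With each cell classed on its own markers the ratio was 1.002. The part of these cells in the difference was not tested.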

How the results depend on the processing

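With 1 library per condition, no left-out replicate and no test could be computed. No paired analysis was possible because each condition has 1 library. Over 13 alternatives, the ratio of *Pdgfc* in fibroblast-like cells ranged from 1.81 to 2.85 and that of *Pdgfd* in endothelial-like cells from 1.43 to 1.51, so the latter lay on both sides of the 1.5-fold limit. *Pdgfa* in mural-like cells ranged from 1.39 to 1.82. It was 1.39 with each cell classed on its own markers and 1.39 in cells whose own markers gave the class of their cluster, an alternative chosen after seeing the data. *Pdgfc* in fibroblast-like cells was 1.81 with each cell classed on its own and 1.91 at a resolution of 0.8. *Pdgfra* in fibroblast-like cells, at 0.968, was 1.14 with 50 principal components, 1.05 with each cell on its own, 1.05 with log-normalized counts without integration, 1.11 as a mean over cells and 1.07 with no hemoglobin limit. The CFA to PBS ratio of the thinned share of endothelial-like cells with *Pdgfd*, at 1.39, was 1.18 at 2000 UMIs. Directions turned for *Pdgfc* in endothelial-like cells (0.612 as a mean over cells, 0.690 without the 5% highest doublet scores), for *Pdgfd* without those cells in chondrocyte-like (0.262) and myelinating Schwann-like cells (0.675), for *Pdgfd* with no hemoglobin limit in the latter (0.965) and with each cell on its own in neutrophil-like cells (1.002), and in osteoblast-like cells for *Pdgfrb* with no hemoglobin limit (1.16) and for *Pdgfrl* with each cell on its own (0.978). Ranges were wide for *Pdgfrb* in endothelial-like (0.0653 to 0.495), *Pdgfb* (0.276 to 0.678) and *Pdgfc* (1.42 to 6.47) in mural-like and *Pdgfd* (2.12 to 5.40) and *Pdgfa* (0.345 to 0.718) in osteoblast-like cells. The causes were not tested. Under all 13 alternatives, the class with the largest sum of UMIs was that of the main analysis for 6 or 7 of the 7 genes in each library. This sum is not the CPM by which classes were ranked above, and for *Pdgfc* and *Pdgfrl* it was largest in fibroblast-like cells. The ranking by CPM was not repeated under the alternatives. Osteoblast-like, tenocyte-like and chondrocyte-like values could not be given under some alternatives, where those classes had too few cells.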

Other observations

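The barcodes left out for hemoglobin held PDGF UMIs too. Among the 3178 PBS barcodes *Pdgfd* was at 114 CPM, *Pdgfra* at 42.6 and *Pdgfrb* at 41.3, and among the 339 CFA barcodes they were at 64.0, 7.12 and 5.34.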
